A study of Homo sapiens with 6 samples.

Results

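The genes examined were 9 components of the TGF-β pathway. They and the lists of further genes below were chosen by name, with earlier results of these data known. The 9 were the ligand genes TGFB1, TGFB2 and TGFB3, the receptor genes TGFBR1, TGFBR2 and TGFBR3, and the intracellular mediators SMAD2, SMAD3 and SMAD7. All 9 were found among the 20811 genes of the expression table. HuCCT1 is an established human intrahepatic cholangiocarcinoma line, a tumour of the bile duct epithelium. HuCCT1/CD90+ cells carried a lentivirus with human THY1, the gene for the surface glycoprotein CD90 (labelled THY1-CMV-GFP), and HuCCT1/CD90− cells carried a blank one (Lenti-CMV-GFP-2A-Puro-Blank). Both names include CMV, a strong viral promoter, and do not say which insert it drives. Both lentiviruses were given at a MOI of 40, and both lines were grown in the same medium with 10% fetal bovine serum. Nothing in the labels says whether a line was a clone or a pool, and the vectors are not described as alike beyond their names. Each line gave 3 libraries of total RNA. They are labelled as replicates without a note of separate cultures, so the p-values below measure only the spread between these libraries, which may be technical.

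TGF-β ligands are secreted in a latent complex, and once released they bring together the type II receptor TGFBR2 and the type I receptor TGFBR1. The active receptor phosphorylates SMAD2 and SMAD3, which enter the nucleus with SMAD4 and change transcription, while SMAD7 is an inhibitory SMAD that acts on the receptor. TGFBR3, or betaglycan, is a co-receptor that presents ligand, above all TGF-β2, to the signalling receptors. In bile duct cancer the pathway is known for restraining the growth of epithelial cells, for epithelial-mesenchymal transition and for the fibrous stroma of the tumour. The comparison asks whether expression of these components was altered in cells that carried THY1.

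Expression was read over 1 amplicon per gene, as RPM, a unit in which every library is scaled to the same total of reads on genes. The libraries held 8587634 to 10551516 reads on genes, so that 3 reads, used here as the floor, correspond to 0.284 to 0.349 RPM. Reads came from PCR without molecular identifiers, so the floor covers counting error only. Amplicons differ in efficiency, so RPM values of different genes are not relative amounts of RNA. Sums and ratios of genes below were compared only between the lines. The transduced gene checked the labels, since THY1 reads numbered 0, 1 and 0 for HuCCT1/CD90− against 435, 445 and 680 for HuCCT1/CD90+ (limma adjusted p = 0.00045). The 7 biliary epithelial markers were detected in both lines, with a summed level per library of 8210 to 9314 RPM (HuCCT1/CD90−) against 10974 to 11722 RPM (HuCCT1/CD90+), and 5 of them were higher in HuCCT1/CD90+. Of 6 stromal markers 5 were lower in HuCCT1/CD90+, with a summed level of 42.7 to 72.6 RPM against 7.18 to 11.8 RPM. The collagens among them, COL1A2 and COL3A1, reached at most 13 reads in HuCCT1/CD90− and 0 in HuCCT1/CD90+. Other stromal markers had more reads in HuCCT1/CD90−, with 182 to 393 for LUM, 198 to 270 for POSTN and 49 to 63 for PDGFRB. COL1A1, a collagen of the list of induced genes below and named after its values were seen, had 115 to 164 reads over all libraries. Its limma adjusted p was 0.82. Hepatocyte markers summed to 3.78 to 5.99 RPM in HuCCT1/CD90− against 6.004 to 12.2 RPM in HuCCT1/CD90+, where 1 of 5 was higher and 2 were lower, and ALB reached at most 1 read. Leucocyte and endothelial markers summed to 60.9 to 74.3 RPM and 84.3 to 102 RPM, with 1 of 5 higher and 1 lower, namely CD68 (490 to 925 reads over all libraries) and CDH5 (141 to 203 reads in HuCCT1/CD90−, 2 to 4 in HuCCT1/CD90+), while the leucocyte marker PTPRC reached at most 1 read. Markers and genes passed at a limma adjusted p of at most 0.05, as 18.9% of all genes did, and 13.1% did with the replicate number as a block. With that block 3 of the 7 biliary, 3 of the 6 stromal, 2 of the 5 hepatocyte and 2 of the 5 leucocyte and endothelial markers passed, and 2 stromal markers passed in every fit with a library left out. The part of these marker differences in the results below was not tested. In such bulk RNA fewer cells that express a gene and less RNA per cell cannot be told apart.

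Of the 9 genes, the ligand gene TGFB2 was lower and the co-receptor gene TGFBR3 was higher in HuCCT1/CD90+ cells, and the other 7 did not pass the test (limma on log2(RPM + 1), adjusted p at most 0.05). Of all genes tested 18.9% passed, 9.41% higher and 9.52% lower. Of the 8794 genes that averaged 10 RPM or more, called expressed genes below and holding 8 of the 9, 28.4% passed, 14.3% higher and 14.1% lower. The share of 2 in 9 was thus near the background. By the rule of a fold change of at least 1.5 with an unadjusted p of at most 0.05, TGFB2 and TGFBR3 passed again, as did 20.1% of all genes. The 3 libraries of a line all lay beyond those of the other for TGFB2, TGFBR3 and SMAD2, while this held for 35.0% of all genes and for 52.5% of expressed genes. The 9 genes had a median log2 fold change of 0.058, beside 0.0 over all genes. When the replicate number was taken as a block, 1 of the 9 genes passed, TGFBR3, against 13.1% of all genes and 20.8% of expressed genes.

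**Figure D1:**
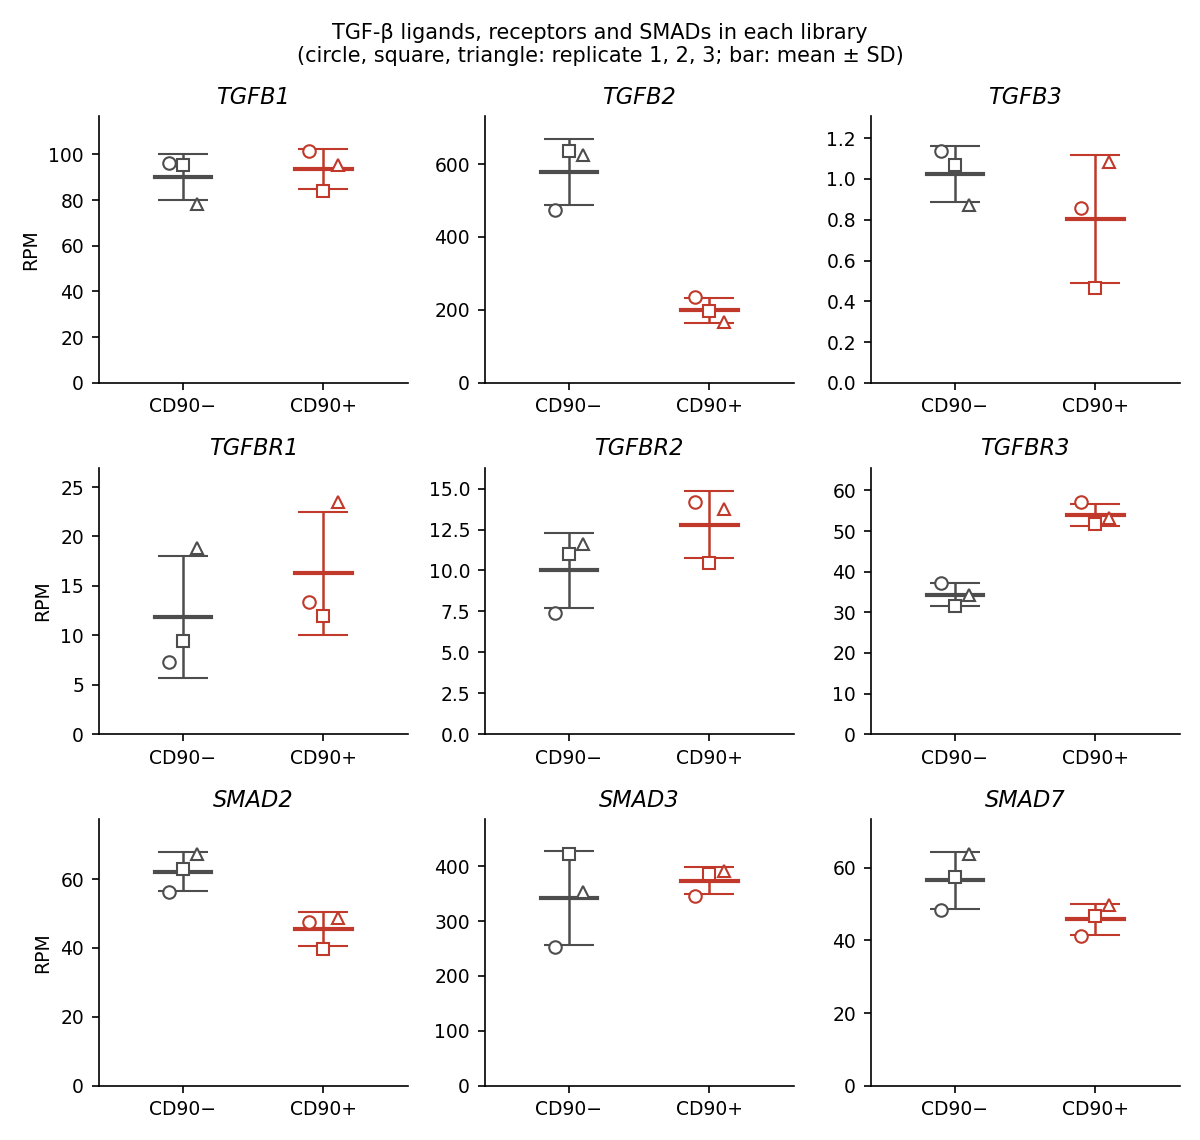
RPM of each of the 9 genes in the 3 HuCCT1/CD90− and the 3 HuCCT1/CD90+ libraries, each panel on its own axis that starts at 0. Markers are libraries, by replicate number, and bars are means with SD. The HuCCT1/CD90+ libraries lie between 167 and 235 RPM for TGFB2, below the 473 to 636 RPM of HuCCT1/CD90−, and between 51.8 and 57.0 RPM for TGFBR3, above the 31.6 to 37.3 RPM of HuCCT1/CD90−.

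The 3 ligand genes encode related dimeric cytokines that share the receptors. The stretches of 250 bases that precede the RefSeq start of TGFB2, which was lower, of TGFBR3, which was higher, and of TGFB1, a ligand gene that did not pass, are shown so that genes with different results in the same cells can be read side by side. Their positions (RefSeq, GRCh38.p14) are chr1:218345086-218345335 on the plus strand for TGFB2, chr19:41353923-41354172 on the minus strand for TGFB1 and chr1:91886152-91886401 on the minus strand for TGFBR3. They are written 5′ to 3′ on the strand of the gene, and capitals mark matches, on either strand, to the TATA box (TATAAA), the E-box (CACGTG), the GC box (GGGCGG), the SMAD box (CAGACA) and the half-site of the cAMP response element (TGACGT).
TGFB2: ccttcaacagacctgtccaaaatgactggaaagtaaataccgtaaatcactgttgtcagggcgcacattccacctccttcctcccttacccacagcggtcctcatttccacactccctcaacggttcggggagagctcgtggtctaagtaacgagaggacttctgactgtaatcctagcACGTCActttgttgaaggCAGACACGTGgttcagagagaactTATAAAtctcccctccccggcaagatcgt
TGFB1: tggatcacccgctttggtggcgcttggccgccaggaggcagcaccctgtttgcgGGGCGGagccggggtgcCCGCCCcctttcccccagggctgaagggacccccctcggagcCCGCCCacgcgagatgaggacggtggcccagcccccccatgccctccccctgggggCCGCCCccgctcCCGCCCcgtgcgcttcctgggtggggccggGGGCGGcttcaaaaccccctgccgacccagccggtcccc
TGFBR3: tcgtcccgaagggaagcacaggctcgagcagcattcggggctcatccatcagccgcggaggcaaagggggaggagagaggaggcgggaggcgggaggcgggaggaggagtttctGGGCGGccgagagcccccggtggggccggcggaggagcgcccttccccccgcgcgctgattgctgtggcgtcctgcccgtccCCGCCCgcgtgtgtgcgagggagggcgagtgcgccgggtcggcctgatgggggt
The TGFB2 window held TATAAA 29 bases before the start, a motif of 10.7% of the 35116 windows of this length, and had a GC content of 50.4%, against a median of 58.0% over all windows. Farther upstream it held CACGTG, which 6.34% of windows hold, CAGACA, which 13.6% hold and which overlaps the CACGTG match, and TGACGT on the reverse strand, which 7.1% hold. The TGFB1 window had a GC content of 76.8% with 6 matches to GGGCGG, and the TGFBR3 window 73.6% with 2 such matches. GGGCGG was found in 42.6% of windows. All 9 genes had an entry among these windows. Each motif of the TGFB2 window was also found in a window of a gene that did not pass. No other of the 9 genes held them all in the same window. Windows of TGFBR1 and SMAD3 held CAGACA. TGFB3, named next, had 4 to 12 reads per library, so its not passing says little. Of the 2 windows of TGFB3, 1 held CACGTG 20 bases before its start and the other TATAAA 30 bases and TGACGT, on the reverse strand, 47 bases before its start, and a window of SMAD7 held TATAAA 35 bases before its start. The matches describe the letters of these windows and no binding was measured.

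TGFB2, on chromosome 1 at 218346235 to 218444619 (GENCODE 29, GRCh38), was measured at 473, 636 and 625 RPM in the HuCCT1/CD90− libraries and at 235, 196 and 167 RPM in the HuCCT1/CD90+ libraries. Every HuCCT1/CD90+ library was below every HuCCT1/CD90− library. The mean of HuCCT1/CD90− was 578 ± 90.7 RPM and that of HuCCT1/CD90+ 199 ± 34.1 RPM (SD, n = 3 per line, as for all means below), so TGFB2 fell, with a log2 fold change of -1.53 (SE 0.19, 95% interval -2.03 to -1.03) or 2.89-fold lower (limma adjusted p = 0.010). With 1542 to 6440 reads per library, the spread between libraries was 15.7% of the mean in HuCCT1/CD90− and 17.1% in HuCCT1/CD90+. Among expressed genes 2.85% had a lower log2 fold change. The median over the 50 expressed genes nearest to it on the chromosome was -0.43, and the difference was -1.10 after their median was taken off (adjusted p = 0.026). With the replicate block the fold change was the same and the adjusted p was 0.076. In HuCCT1/CD90− the library of number 1 was the lowest, and in HuCCT1/CD90+ the library of that number was the highest.

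TGFB1 encodes the most studied ligand of the family. It was measured at 96.1, 95.3 and 78.4 RPM in HuCCT1/CD90− and at 101, 84.0 and 95.3 RPM in HuCCT1/CD90+. The libraries of the lines overlapped. The means were 89.9 ± 10.0 and 93.5 ± 8.86 RPM, a log2 fold change of 0.058 (SE 0.12, adjusted p = 0.91). The 95% interval of the ratio of HuCCT1/CD90+ to HuCCT1/CD90− ran from 0.838 to 1.29, and the sign of the difference turned without HuCCT1/CD90− replicate 3 (-0.037) or without HuCCT1/CD90+ replicate 1 (-0.0019). TGFB3 was near the limit of detection, with 4 to 12 reads per library. It was measured at 1.14, 1.07 and 0.873 RPM in HuCCT1/CD90− and at 0.858, 0.466 and 1.09 RPM in HuCCT1/CD90+. These values overlapped, and a difference was not detectable at this depth (log2 fold change -0.18, SE 0.15, adjusted p = 0.57).

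A ratio of ligand genes within a library does not depend on how the library was scaled. TGFB2 RPM divided by TGFB1 RPM was 4.93, 6.67 and 7.97 in the HuCCT1/CD90− libraries and 2.32, 2.33 and 1.76 in the HuCCT1/CD90+ libraries. The ratio was lower in each HuCCT1/CD90+ library than in any HuCCT1/CD90− library, by 3.02-fold (exact permutation test, two-sided, p = 0.1, the smallest p that 3 against 3 libraries allow, and 0.2333 after Benjamini-Hochberg adjustment over 7 ratios). The ratios of TGFB3 to TGFB1 and of TGFB2 to TGFB3 overlapped between the lines, with differences of -0.49 and -1.11 on the log2 scale. How often ratios of other gene pairs lie apart was not counted, while 52.5% of single expressed genes did.

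TGFBR3 was measured at 37.3, 31.6 and 34.1 RPM in HuCCT1/CD90− and at 57.0, 51.8 and 53.3 RPM in HuCCT1/CD90+. Every HuCCT1/CD90+ library was above every HuCCT1/CD90− library. In both lines number 1 was the highest and number 2 the lowest. TGFBR3 rose from a mean of 34.4 ± 2.89 RPM to 54.0 ± 2.69 RPM, with a log2 fold change of 0.64 (SE 0.075, 95% interval 0.44 to 0.84) or 1.56-fold (limma adjusted p = 0.0089). The difference was smaller than that of TGFB2, and its SE was smaller too. Among expressed genes 13.9% had a higher log2 fold change. TGFBR3 lies on chromosome 1 at 91680343 to 91906335, on the minus strand, and in this annotation its span starts upstream of the RefSeq start used for the window above. The median over its 50 nearest expressed genes was -0.30, opposite in sign to its own, and its log2 fold change was 0.93 after their median was taken off (adjusted p = 0.0036).

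TGFBR1 and TGFBR2, whose products form the signalling receptor, were read with few counts, 77 to 216 and 78 to 132 reads per library. TGFBR1 was measured at 7.30, 9.42 and 18.8 RPM in HuCCT1/CD90− and at 13.4, 11.99 and 23.4 RPM in HuCCT1/CD90+. Number 3 was the highest in both lines, and the lines overlapped. The log2 fold change was 0.47 (SE 0.45, 95% interval -0.72 to 1.66, adjusted p = 0.57), and the replicate block lowered the SE to 0.15 with an adjusted p of 0.19. TGFBR2 was measured at 7.39, 11.02 and 11.6 RPM in HuCCT1/CD90− and at 14.2, 10.5 and 13.8 RPM in HuCCT1/CD90+. The HuCCT1/CD90+ library of number 2 fell among the HuCCT1/CD90− libraries. The log2 fold change was 0.34 (SE 0.21, 95% interval -0.23 to 0.91, adjusted p = 0.40). These intervals hold changes as large as that of TGFBR3. The ratios of TGFBR2 to TGFBR1 and of TGFBR3 to TGFBR2 overlapped between the lines (exact permutation test, two-sided, p = 0.6 and p = 0.4).

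**Figure D2:**
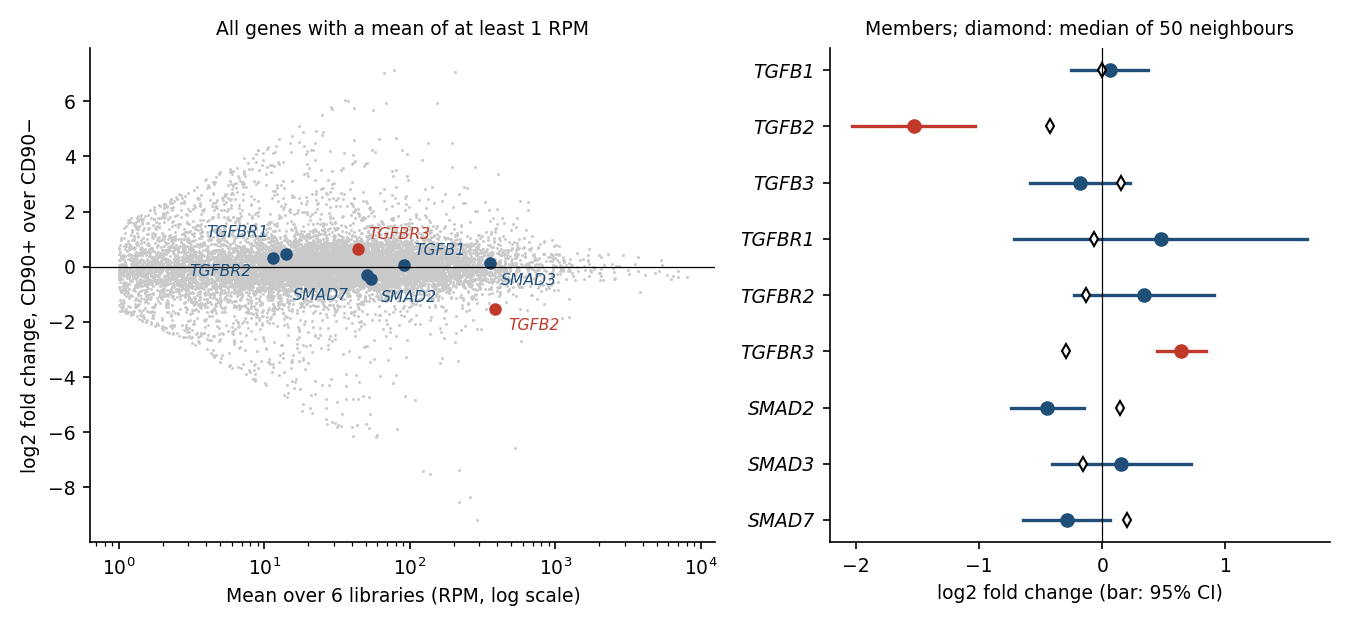
Left, log2 fold change (HuCCT1/CD90+ minus HuCCT1/CD90−) against mean RPM on a log axis for genes that averaged 1 RPM or more, with the examined genes named except TGFB3, whose mean is lower. Right, log2 fold change of the 9 genes with 95% intervals, and diamonds at the median of the 50 nearest expressed genes. The intervals of TGFB2 (-2.03 to -1.03), TGFBR3 (0.44 to 0.84) and SMAD2 (-0.74 to -0.15) do not reach 0.

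SMAD2 and SMAD3 are the receptor-regulated SMADs of this branch. SMAD2 was measured at 56.2, 63.0 and 67.3 RPM in HuCCT1/CD90− and at 47.6, 39.8 and 48.8 RPM in HuCCT1/CD90+. All HuCCT1/CD90+ libraries were below all HuCCT1/CD90− libraries. The means were 62.2 ± 5.61 and 45.4 ± 4.88 RPM, a log2 fold change of -0.45 (SE 0.11, 95% interval -0.74 to -0.15) with an adjusted p of 0.062, just above the threshold of 0.05. The result depended on the fit. Of 18 alternatives 8 gave an adjusted p of at most 0.05, among them median centring (0.017) and DESeq2 on the recovered reads (0.018). The replicate block gave 0.13. SMAD2 passed in 0 of the 6 fits with a library left out, which have fewer samples. The median over its 50 nearest expressed genes on chromosome 18 was 0.14.

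SMAD3 was measured at 252, 422 and 352 RPM in HuCCT1/CD90− and at 345, 385 and 390 RPM in HuCCT1/CD90+. The HuCCT1/CD90+ libraries lay within the range of the HuCCT1/CD90− libraries. The log2 fold change was 0.16 (SE 0.21, 95% interval -0.41 to 0.72, adjusted p = 0.76), and without HuCCT1/CD90− replicate 1, the lowest library, it was -0.048. SMAD7 was measured at 48.2, 57.6 and 63.8 RPM in HuCCT1/CD90− and at 41.3, 46.7 and 49.7 RPM in HuCCT1/CD90+. Within each number the HuCCT1/CD90+ library was the lower, while the lines as a whole overlapped. The log2 fold change was -0.29 (SE 0.13, 95% interval -0.64 to 0.062, adjusted p = 0.24), and the replicate block lowered the SE to 0.036 with an adjusted p of 0.054.

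Relative to SMAD3 in the same library, SMAD2 was 0.223, 0.149 and 0.191 in HuCCT1/CD90− and 0.138, 0.103 and 0.125 in HuCCT1/CD90+. The ratio of SMAD7 to SMAD3 was 0.191, 0.136 and 0.181 in HuCCT1/CD90− and 0.119, 0.121 and 0.127 in HuCCT1/CD90+. For each ratio the lines did not overlap, with log2 differences of -0.61 and -0.45 (exact permutation test, two-sided, p = 0.1 for each, the smallest possible, and 0.2333 adjusted over the 7 ratios). The spread of SMAD3 between the HuCCT1/CD90− libraries enters both ratios. As above, the share of other gene pairs whose ratios lie apart was not counted.

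**Figure D3:**
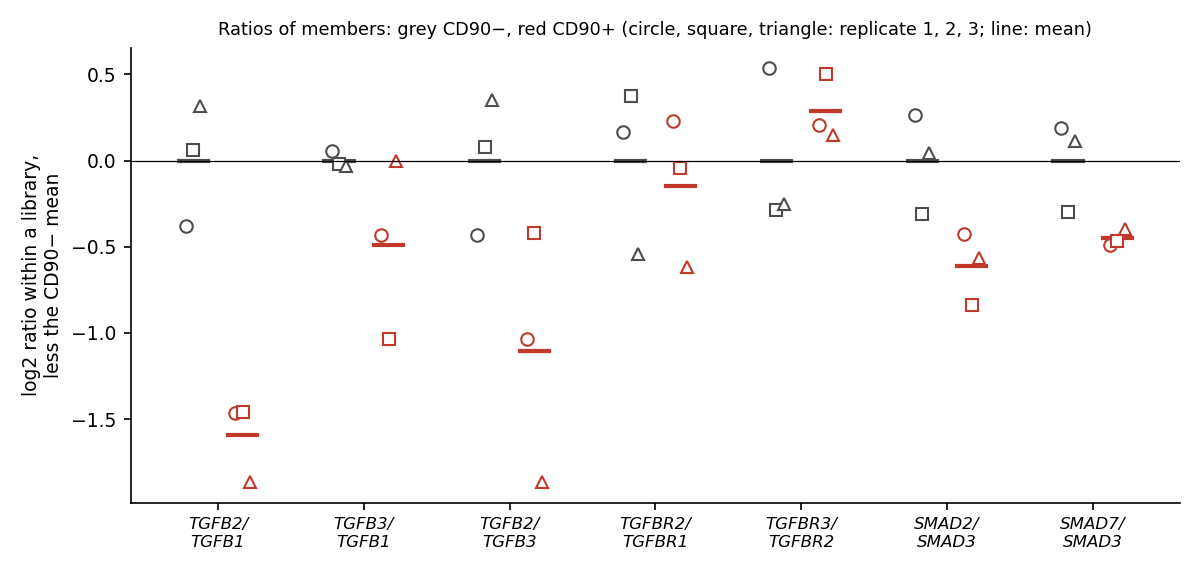
Log2 ratio of a pair of genes within each library, minus the mean of the HuCCT1/CD90− libraries, for the 7 ratios. Points are libraries, 3 per line. The lines are apart for TGFB2/TGFB1 (difference -1.59), SMAD2/SMAD3 (-0.61) and SMAD7/SMAD3 (-0.45) and overlap for the other 4. Of single expressed genes 52.5% are apart in this way, and the share among ratios of other gene pairs was not counted.

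The genes whose pattern over the 6 libraries was closest to that of TGFB2 and TGFBR3 were sought among the 8793 other expressed genes, by the root mean square difference of log2(RPM + 1) centred on each gene's mean. For TGFB2 they were GRAMD1A (difference 0.087), SH3RF3 (0.127) and LINC00673 (0.14). GRAMD1A averaged 66.7 RPM without the THY1 virus and 22.2 RPM with it (log2 difference -1.53). For TGFBR3 they were SEC61A1 (0.0316), a subunit of the translocon of the endoplasmic reticulum, SDR42E1 (0.0374) and PKP2 (0.0476), a desmosome protein. SEC61A1 had a log2 fold change of 0.69. The likeness is a description over 6 libraries of which 3 share a line.

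Of 15 further receptors and SMADs of the TGF-β superfamily, 1 was higher, 3 were lower and 11 did not pass, with a median log2 fold change of -0.040. The 4 of 15 that passed lie near the background of 18.9% of all genes and 28.4% of expressed genes. SMAD6, an inhibitory SMAD best known in the BMP branch, fell from 68.6 ± 6.99 to 7.69 ± 3.27 RPM (log2 difference -3.06, adjusted p = 0.0053), with 62.1, 76.0 and 67.6 RPM in HuCCT1/CD90− and 5.25, 11.4 and 6.40 RPM in HuCCT1/CD90+. SMAD4, the shared partner of the receptor-regulated SMADs, fell from 51.1 ± 3.35 to 39.0 ± 0.275 RPM (log2 difference -0.38, adjusted p = 0.013, and 0.060 with the replicate block). BMPR1B, a type I receptor for BMPs, rose from 0.228 ± 0.144 to 2.67 ± 0.757 RPM (adjusted p = 0.010), where the HuCCT1/CD90− libraries had 1 to 4 reads. The third lower gene, SMAD9, named after its values were seen, had at most 2 reads in any library, and no fold is given. ENG, the co-receptor endoglin, was at 66.1 ± 20.1 and 65.4 ± 2.65 RPM (log2 fold change 0.028, adjusted p = 1). With the replicate block 4 of the 15 passed as well, beside 13.1% of all genes and 20.8% of expressed genes, but SMAD4 and SMAD9 (adjusted p = 0.10) did not, while ACVR2B (0.019) and BMPR2 (0.041), type II receptors named after their values were seen, passed as lower. Without HuCCT1/CD90+ replicate 1 or replicate 2 the number of these 15 genes that passed went from 4 to 2, and SMAD4 kept an adjusted p of at most 0.05 in 3 of 6 fits with a library left out.

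Of 19 genes of ligand latency and activation, 2 were higher, 5 were lower and 12 did not pass, with a median of -0.22, where 18.9% of all genes and 28.4% of expressed genes passed. Of the 5 integrin β subunits in the list, partners of αv, 2 rose, 1 fell and 2 did not pass. ITGB8 and ITGB1, named after their values were seen, had log2 differences of -0.58 (adjusted p = 0.25) and -0.09 (adjusted p = 0.91). ITGB6, the subunit found in epithelia, rose from 0.724 ± 0.196 to 20.2 ± 4.12 RPM (log2 difference 3.61, adjusted p = 0.0011), with 19.9, 16.2 and 24.4 RPM in HuCCT1/CD90+. ITGB3 fell from 20.7 ± 3.93 to 1.01 ± 0.451 RPM (-3.44, adjusted p = 0.0020), with 16.2, 22.6 and 23.4 RPM in HuCCT1/CD90−. Where levels are near 1 RPM the offset of the log scale shrinks the change, and the log2 difference ranged over the alternatives from 2.12 to 4.80 for ITGB6 and from -4.36 to -2.09 for ITGB3. ITGB5 rose from 74.9 ± 3.83 to 102 ± 9.96 RPM (0.44, adjusted p = 0.032), where the 50 nearest genes had a median of 0.58, and after their median was taken off its log2 fold change was -0.14 (adjusted p = 0.41). LTBP2, of the family of proteins that bind latent TGF-β in the matrix, fell from 47.8 ± 7.74 to 16.5 ± 2.08 RPM (-1.47, adjusted p = 0.0070). MMP14, a membrane-bound metalloproteinase, fell from 325 ± 94.0 to 137 ± 11.1 RPM (-1.199, adjusted p = 0.032). DCN, a proteoglycan that binds TGF-β, had 2.27, 11.2 and 7.76 RPM in HuCCT1/CD90− and 0, 0.116 and 0 RPM in HuCCT1/CD90+ (adjusted p = 0.034). The fifth lower gene was LTBP1, named after its values were seen, at 6.40 ± 0.967 and 2.85 ± 0.286 RPM. With the replicate block, under which 13.1% of all genes and 20.8% of expressed genes passed, 3 of the 19 did, ITGB6, ITGB3 and LTBP2, and these passed in all 6 fits with a library left out. Quantile normalization gave 1 higher and 5 lower. The count was 4 without HuCCT1/CD90− replicate 3 and 4 without each HuCCT1/CD90+ library in turn. In the 6 fits MMP14 passed in 2, ITGB5 in 1 and DCN in 1.

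Of 22 regulators of the pathway, 3 were higher, 2 were lower and 17 did not pass, with a median of 0.047. The 5 of 22 that passed lie between the 18.9% of all genes and the 28.4% of expressed genes. SMURF1, a ubiquitin ligase, rose from 38.0 ± 6.75 to 88.6 ± 16.3 RPM (log2 difference 1.199, adjusted p = 0.021), SMURF2 from 90.4 ± 12.6 to 185 ± 38.6 RPM (1.01, adjusted p = 0.032, and 0.067 with the replicate block) and WWP1 from 5.95 ± 0.984 to 13.0 ± 1.13 RPM (1.02, adjusted p = 0.010). The 50 genes nearest to SMURF1 on chromosome 7 had a median of 0.65, and after it was taken off the log2 fold change was 0.55 (adjusted p = 0.15). BAMBI, a receptor-like protein that blocks the type I receptor, fell from 16.0 ± 3.56 to 2.60 ± 0.798 RPM (-2.24, adjusted p = 0.0075). SKI, a repressor of SMAD transcription, fell from 68.6 ± 6.33 to 46.1 ± 3.44 RPM (-0.56, adjusted p = 0.021), and after the median of its neighbours was taken off the difference was -0.18 (adjusted p = 0.30). DESeq2 gave 5 higher and 2 lower, where all genes gave 2731 and 2595 beside 1958 and 1981 in the fit reported. The number that passed was 2 without HuCCT1/CD90− replicate 3 or HuCCT1/CD90+ replicate 3 and 3 without HuCCT1/CD90+ replicate 1 or 2. WWP1 and BAMBI passed in all 6 fits with a library left out, SMURF1 and SKI in 2 each and SMURF2 in 0.

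Of 20 genes known to be induced by TGF-β in many cell types, 3 were higher, 9 were lower and 8 did not pass, with a median of -0.028. Of all genes 9.41% were higher and 9.52% lower, and of expressed genes 14.3% and 14.1%. TNC, the matrix protein tenascin C, fell from 437 ± 27.6 to 1.69 ± 0.707 RPM (log2 difference -7.38, adjusted p = 0.00040). TAGLN, an actin-binding protein of smooth muscle, fell from 30.1 ± 8.65 to 3.48 ± 1.16 RPM (-2.79, adjusted p = 0.0064), and SNAI1, a transcription factor of epithelial-mesenchymal transition, from 22.9 ± 7.72 to 4.38 ± 1.08 RPM (-2.12, adjusted p = 0.016). TGFBI, a matrix protein named for its induction by TGF-β, fell from 1752 ± 405 to 480 ± 71.8 RPM (-1.85, adjusted p = 0.0085, and 0.063 with the replicate block). CCN2, a matricellular growth factor also called CTGF, fell from 47.7 ± 5.48 to 21.0 ± 5.61 RPM (-1.17, adjusted p = 0.027), and after the median of its neighbours (-0.48) was taken off the difference was -0.70 (adjusted p = 0.11). With the replicate block CCN2 did not pass (adjusted p = 0.090). In the other direction, NEDD9, a scaffold of focal adhesions, rose from 2.20 ± 0.516 to 22.1 ± 1.56 RPM (2.86, adjusted p = 0.0011), and PDGFB, a platelet-derived growth factor, from 101 ± 6.66 to 155 ± 18.0 RPM (0.61, adjusted p = 0.026).

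With the replicate block 7 of the 20 induced genes passed, 3 higher and 4 lower, beside 13.1% of all genes (1398 higher and 1331 lower) and 20.8% of expressed genes. The number that passed was 7 without HuCCT1/CD90− replicate 2, 5 without HuCCT1/CD90− replicate 3, 7 without HuCCT1/CD90+ replicate 1 and 6 without HuCCT1/CD90+ replicate 2 or 3. TNC, TAGLN, TGFBI and NEDD9 were among the 5 that passed in all 6 fits with a library left out, while SNAI1 passed in 3, CCN2 in 1 and PDGFB in 1. Median centring gave 5 higher and 9 lower, where all genes gave 2400 and 2736, and DESeq2 6 higher and 9 lower, where all genes gave 2731 and 2595, beside 1958 and 1981 in the fit reported. The stromal markers, 5 of 6 lower in HuCCT1/CD90+ and 3 of 6 with the replicate block, moved with TNC, TAGLN, TGFBI, CCN2 and DCN. COL1A1, an induced gene named after its values were seen, did not pass (log2 fold change 0.078, limma adjusted p = 0.82). The part of the stromal markers in these values was not tested.

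**Figure D4:**
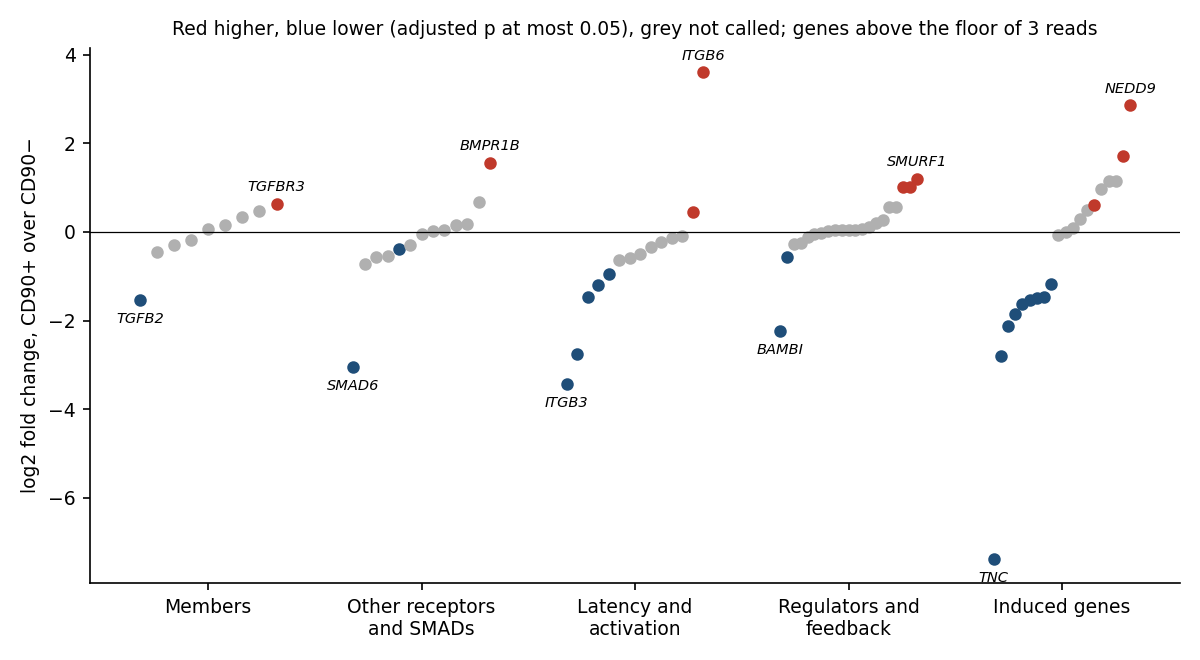
Log2 fold change (HuCCT1/CD90+ minus HuCCT1/CD90−) of the 9 examined genes (Members) and of the genes of the 4 pathway lists with more than 3 reads in some library, 1 point per gene. At an adjusted p of at most 0.05 genes are red where higher and blue where lower, others are grey, and the ends of each list that passed are named. Genes that passed lie on both sides of 0 in each list, with 3 higher and 9 lower among the 20 induced genes.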

How the data were processed

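Total RNA of 3 HuCCT1/CD90− and 3 HuCCT1/CD90+ libraries was amplified by the authors with the Ion AmpliSeq Transcriptome panel, read on an Ion GeneStudio S5 Prime system, with reads counted per amplicon. The deposited values are RPM in 1 table of 20811 genes, of which 3805 had no reads. The submitters' processing notes name hg19 and the Transcriptome Analysis Console, in which the authors ran limma's eBayes test. How hg19 was used is not given in the sources used here. The table holds no amplicon positions, so isoforms without the amplicon are missed.

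Dividing by the value of 1 read gave whole reads for 100% of the values (tolerance 0.05 reads). No pair of libraries agreed within sampling noise. RPM was taken to log2(RPM + 1), which understates the change of low genes, and tested with limma 3.58.1 in R 4.3.3 over all genes without a filter, two-sided, with Benjamini-Hochberg adjustment. A gene passed at an adjusted p of at most 0.05. Ratios were tested with SciPy 1.17.1. No fold is given against a line with at most 3 reads in each library. Gene positions are from GENCODE 29 and are of GRCh38, and promoter windows are from RefSeq. On simulated reads with known fold changes, the sign and size of the changes, unadjusted p-values and false calls were checked. Recovery of the changes at an adjusted p of at most 0.05 was not required.

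The genes and lists were chosen with earlier results of these data known. Named were the 9 genes, THY1, the 3 genes nearest in pattern to each that passed, and in each list at most the 4 largest changes in a direction among genes that passed with a mean of at least 1 RPM, plus SMAD4, SMAD6, ENG and CCN2. An induced gene that this rule names is counted but not reported here.

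Deviations of libraries with the same replicate number from the means of their lines correlated with r = 0.209, 0.32 and 0.178, and those of other pairs with -0.294 to 0.0706. On this check, and no statement of the labels, same-numbered libraries were treated as pairs in the replicate block only. The fit reported and the ratio tests reported did not pair them. Alternatives were the replicate block, offsets of 0.1 and 5 RPM, minimum means of 1 and 10 RPM, quantile normalization, median centring, eBayes with trend and robust settings, edgeR 4.0.16 without a filter and with filterByExpr and DESeq2 1.42.0 on the recovered reads, division by the 50 nearest genes, each library left out, and a fold change of 1.5 with an unadjusted p of at most 0.05.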

Additional observations from a re-analysis of the deposited data

How the results depend on the processing

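TGFBR3 was higher in all 18 alternatives and passed in each. TGFB2 was lower in all 18 and passed in 17, the exception being the replicate block (adjusted p = 0.076), in which 1 of the 9 genes passed, as did 3 of the 19 latency and activation genes and 7 of the 20 induced genes. The block changed no other call of the 9 genes. With 1 library left out, 2 of the 9 genes passed each time, and counts ranged from 2 to 4 for the 15 further receptors and SMADs, from 4 to 6 for latency and activation, from 2 to 5 for regulators, from 5 to 10 for induced genes and from 2197 to 2932 for all genes, of which 3939 passed with all libraries. The count over all genes was more than 1.5 times smaller without HuCCT1/CD90− replicate 3 (2465) and without HuCCT1/CD90+ replicate 1 (2526), 2 (2549) or 3 (2197). These fits have fewer samples. Among the further receptors and SMADs 7 passed under median centring, edgeR with filterByExpr and DESeq2, where all genes gave 5136, 5357 and 5326, and 3 regulators passed with the neighbouring genes divided out, where all genes gave 3358. The cause was not tested. Over the libraries left out, log2 fold changes ranged from -0.037 to 0.13 for TGFB1, where 2 values were below 0 (-0.037 and -0.0019), and from -0.048 to 0.32 for SMAD3. That of TGFBR1 ranged from 0.19 to 0.84. The log2 difference of TGFBR2/TGFBR1 ranged from -0.42 to 0.091, above 0 without HuCCT1/CD90− replicate 2 (0.043) and HuCCT1/CD90+ replicate 3 (0.091). SMAD2 passed in 8 of 18 alternatives and kept its sign in all. TGFB3 could not be fitted where low genes were removed. Depth limits TGFB3, with 4 to 12 reads.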
